A study of Mus musculus with 5 samples.

Results

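Immunoglobulin constant region genes and the J chain gene were examined in regulatory T cell (Treg) preparations from mice on a high-fat diet. The members are the 10 genes whose symbol in the deposited table is Ighm, Ighd, Ighg1, Ighg2b, Ighg2c, Ighg3, Igha, Ighe, Igkc or Jchain, and all 10 were found among 48440 genes in all. RNA was sequenced from freshly isolated, untreated CD4+CD25+ spleen cells of C57B/6 mice, enriched with magnetic beads. There were 3 libraries from mice with a CD4 T cell knockout of KLF10 (CD4-KLF10-KO, called KO here) and 2 from wild-type (WT) mice, all on the high-fat diet. KLF10 is a Krüppel-like transcription factor induced by TGF-β. The labels give neither the Cre driver nor the ages, and they do not say whether each library comes from a separate animal, so p-values measure only the spread between these libraries, which may be technical.

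B cells carry immunoglobulin as a receptor on their surface, and plasma cells, which arise from them, secrete it as antibody. A heavy chain pairs with a kappa or lambda light chain, and the heavy chain's constant region sets the isotype: IgM and IgD on naive B cells, and IgG, IgE or IgA after class switching. The J chain joins units of secreted IgM and of IgA into polymers. Tregs are not known to make any of these proteins. The knockout label names T cells and not B cells.

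The heavy chain genes lie in a row on the minus strand of chromosome 12 (GRCm38, coordinates of the deposited table). In the order of transcription they are Ighm (113418558 to 113422730), Ighd (113406604 to 113416324), Ighg3 (113359575 to 113361232), Ighg1 (113325240 to 113330523), Ighg2b (113302965 to 113307933), Ighg2c (113285325 to 113288932), Ighe (113271174 to 113273248) and Igha (113254830 to 113260236). Igkc, the kappa constant region, lies on the plus strand of chromosome 6 (70726435 to 70726966) and Jchain on the minus strand of chromosome 5 (88519809 to 88527891). GENCODE M21 types Jchain as protein coding and the other members as immunoglobulin constant genes, and it ends Ighe and Ighg3 farther downstream than the deposited table does.

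The 4 IgG genes are close relatives, and which isotype a read is counted for rests on the bases at which they differ. The first 90 bases of their first constant exon, which encodes the start of the CH1 domain, are shown from GENCODE M21 transcripts (5′ to 3′, minus strand of chromosome 12, GRCm38), with capitals at the bases unlike Ighg1 at the same position.
Ighg1 (chr12:113330434-113330523): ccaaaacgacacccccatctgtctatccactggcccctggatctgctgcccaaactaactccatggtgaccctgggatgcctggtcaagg
Ighg2b (chr12:113307844-113307933): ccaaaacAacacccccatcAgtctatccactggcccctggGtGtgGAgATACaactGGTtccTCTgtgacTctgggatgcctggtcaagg
Ighg2c (chr12:113288843-113288932): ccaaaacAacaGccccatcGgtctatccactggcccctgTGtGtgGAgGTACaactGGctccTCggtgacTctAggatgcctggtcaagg
Ighg3 (chr12:113361143-113361232): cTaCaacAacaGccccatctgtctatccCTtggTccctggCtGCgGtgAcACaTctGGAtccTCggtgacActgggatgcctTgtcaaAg
Ighg2b and Ighg2c differed from each other at 7 of these 90 bases (92.2% identity), and Ighg1 differed from Ighg2b at 17, from Ighg2c at 18 and from Ighg3 at 23. Over the whole transcripts, 5.49% of the 50-base windows of Ighg2c were also found in Ighg2b. The shared windows came to 4.15% in Ighg2b, 1.58% in Ighg3 and 0.393% in Ighg1. For the other 6 members 0 windows were shared with a transcript of any other gene. The split between Ighg2b and Ighg2c is therefore less certain than the rest.

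The libraries held 25622614 to 30521797 counts each. Enough counts for a test were found in 14460 genes, the 10 members among them. Klf10 had 408, 331 and 271 counts in KO replicates 1, 2 and 3 and 668 and 588 counts in WT replicates 1 and 2, so the targeted gene was lower in each KO library but still detected, without passing the test (log2 fold change −0.84, SE 0.22, edgeR adjusted p = 0.136). Foxp3, the factor that defines Tregs, was at 474, 489 and 477 CPM (scaled counts per 1000000 reads) in KO and 577 and 476 CPM in WT. Il2ra, which encodes CD25, was at 287, 277 and 266 CPM in KO and 411 and 332 CPM in WT. Its log2 fold change was −0.42 (SE 0.099, edgeR adjusted p = 0.104, DESeq2 adjusted p = 0.0089). Of 8 Treg markers, 1 (Il2ra) had all KO libraries below both WT libraries, against 17.4% of all genes. Of all genes tested, 33 were called higher and 8 lower in KO by edgeR (1149 and 27 with libraries scaled to 14 pan-T cell genes, which raised log2 changes by a median of 0.25). These 14 genes summed to 2998, 3147 and 3058 CPM in KO and 3936 and 3387 CPM in WT, with a median log2 fold change of −0.27. In 10 of them all KO libraries lay below both WT libraries, against 17.4% of all genes. Of the 14, edgeR called 0, and DESeq2 called 4, all lower in KO, against 7.35% of the genes it tested. The 10 erythroid markers summed to 91974, 55830 and 55876 CPM in KO and 20636 and 14684 CPM in WT, and 10 macrophage markers to 992, 1221 and 1114 CPM in KO and 609 and 427 CPM in WT. The part of these cells in the immunoglobulin values was not tested.

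Immunoglobulin and J chain transcripts were abundant in every library and did not differ between the genotypes beyond the spread of the libraries. The 10 genes together took 1.45%, 1.21% and 1.96% of all counts in KO replicates 1, 2 and 3 and 1.03% and 2.08% in WT replicates 1 and 2, with means of 1.54 ± 0.379% in KO (SD, n = 3) and 1.55 ± 0.748% in WT (SD, n = 2; exact permutation test, two-sided, p = 1.0). With 3 libraries against 2 this test cannot give a p below 0.2. The highest and the lowest library were both WT, and the KO libraries lay between them. In bulk RNA, fewer cells of a type and less RNA per cell cannot be told apart.

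Of the 10 members, 0 were called by edgeR, against 0.284% of all genes tested (0 higher in KO, against 0.228%, and 0 lower, against 0.0553%). DESeq2 also called 0 of 10, against 7.35% of the genes it tested (0 higher in KO, against 5.84%). An unadjusted p under 0.05 was reached by 1 member, Igha, with edgeR, against 16.4% of all genes, and by 0 with DESeq2. In 0 of 10 members did the KO libraries lie wholly above or below the WT libraries, against 35% of all genes. The median log2 fold change of the members was −0.0093, and that of all genes tested was −0.014. The members varied widely from library to library: the SD of their log2 level over the 5 libraries exceeded that of 86.2% of the genes tested for Ighd, the steadiest, and 99.8% for Ighg1, the most variable.

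**Figure D1:**
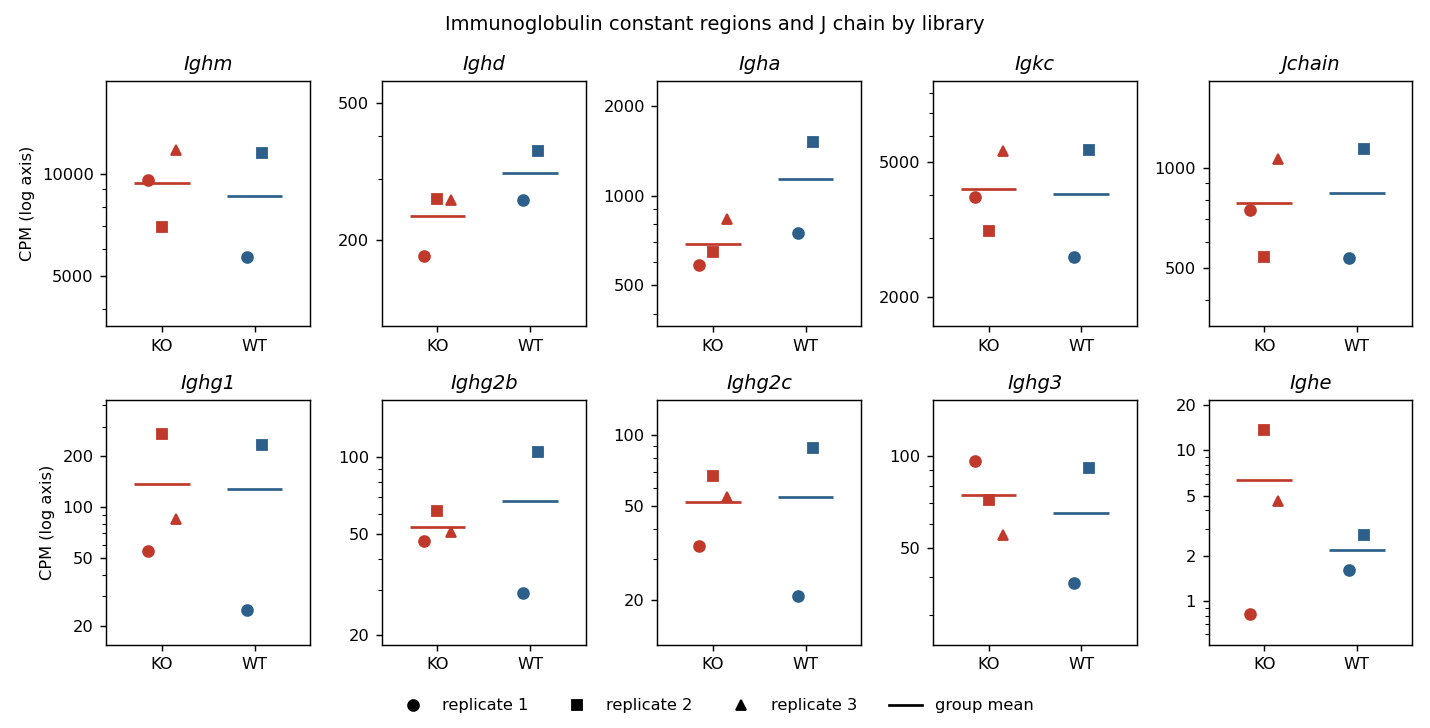
Level of each member in TMM-scaled CPM (log axis, own scale per panel) for the 3 KO libraries (left, red) and the 2 WT libraries (right, blue), with a line at each group's mean. In every panel the KO and WT points overlap, and WT replicates 1 and 2 lie far apart for most genes.

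On the TPM scale, which divides by the length assigned to each gene, the members spanned a wide range. The order of genes on this scale rests on those lengths. In KO replicate 1, for example, Ighg2b had 1204 counts to 872 of Ighg2c, but 36.8 TPM to 53.8. Igkc was the highest member in deposited TPM, from 12816 to 25545 TPM over the 5 libraries, and Ighm followed at 7832 to 15268 TPM. Their ranges overlapped, but Igkc was above Ighm within each library. Igha (457 to 1422 TPM) and Jchain (499 to 1132 TPM) could not be ordered. Ighd (197 to 477 TPM) lay below every Jchain value and overlapped the low end of Igha and the high ends of Ighg3 and Ighg1. Within each library, Ighd was below Igha and above Ighg3 and Ighg1. The 4 IgG genes overlapped one another, with Ighg3 at 91.5 to 212 TPM, Ighg1 at 24.7 to 244 TPM, Ighg2c at 40.6 to 167 TPM and Ighg2b at 28.5 to 98.4 TPM. Ighe was the lowest at 1.26 to 23.2 TPM, below every value of Ighg2b.

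Ighm, the heavy chain of IgM, was the fifth most abundant gene of all those tested by mean CPM. It had 244585, 183639 and 357690 counts in KO replicates 1, 2 and 3 and 173114 and 299909 counts in WT replicates 1 and 2, or 9569.6, 6979.8 and 11711 CPM in KO and 5710 and 11511 CPM in WT. KO replicate 3 and WT replicate 2 were the high libraries and WT replicate 1 the lowest. The fitted log2 fold change was 0.13 (SE 0.33, edgeR adjusted p = 0.890), with a 95% interval from −0.66 to 0.92, so a change by a factor between 0.632 and 1.89 could not be told from none.

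Igkc, which serves heavy chains of every isotype, followed the same pattern. It was at 3966, 3133 and 5417 CPM in KO replicates 1, 2 and 3 and at 2635.5 and 5433 CPM in WT replicates 1 and 2 (log2 fold change 0.049, SE 0.34, edgeR adjusted p = 0.963). WT replicate 2 had 2.06 times the level of WT replicate 1. Igkc kept nearly the same proportion to the heavy chains in all libraries, with 37.5, 37.4 and 41.5 counts per 100 counts of the 8 heavy chain genes in KO replicates 1, 2 and 3 and 38.5 and 39.1 in WT replicates 1 and 2. On the TPM scale, Igkc exceeded the summed heavy chains by a factor of 1.35 to 1.4956. The lambda constant genes Iglc1, Iglc2 and Iglc3, of which the last pair are close copies, together had 16.5, 18.6 and 11.5 counts per 100 counts of Igkc in KO and 17.8 and 18.3 in WT. KO replicate 3 was the lowest in this lambda proportion and the highest in Igkc among the KO libraries.

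Jchain was at 746, 538 and 1063 CPM in KO replicates 1, 2 and 3 and at 535 and 1139 CPM in WT replicates 1 and 2 (log2 fold change −0.098, SE 0.38, edgeR adjusted p = 0.933). Its order over the libraries was close to that of Ighm and Igkc, with KO replicate 3 and WT replicate 2 high. Set against Ighm in the same library, Jchain had 7.79, 7.71 and 9.08 counts per 100 of Ighm in KO and 9.37 and 9.90 in WT. All KO values lay below both WT values by a small margin (difference of log2 ratios −0.24; exact permutation test, two-sided, p = 0.2, the smallest it can give). The same held per 100 counts of Igkc, at 18.8, 17.2 and 19.6 in KO and 20.3 and 21.0 in WT.

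Ighd, the heavy chain of IgD, is spliced from the same primary transcript as Ighm in naive B cells. It was at 179, 263 and 262 CPM in KO replicates 1, 2 and 3 and at 262 and 362 CPM in WT replicates 1 and 2 (log2 fold change −0.41, SE 0.20, edgeR adjusted p = 0.391). KO replicate 1 was the lowest and WT replicate 2 the highest, while the other 3 libraries were nearly level. Per 100 counts of Ighm there were 1.87, 3.77 and 2.23 counts of Ighd in KO and 4.58 and 3.15 in WT. These groups overlapped, since KO replicate 2 lay between the WT libraries (exact permutation test, two-sided, p = 0.4).

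Igha, the heavy chain of IgA, showed the lowest unadjusted p of the members. It had 14914, 17066 and 25523 counts in KO replicates 1, 2 and 3 and 22773 and 39528 counts in WT replicates 1 and 2, or 584, 649 and 836 CPM in KO and 751 and 1517 CPM in WT. The groups overlapped because KO replicate 3 lay above WT replicate 1. The fitted log2 fold change was −0.72 (SE 0.29, unadjusted p = 0.048), which over all genes tested was not a call (edgeR adjusted p = 0.301). It rested on WT replicate 2, without which it was −0.13 (edgeR adjusted p = 0.810), and was −1.14 without WT replicate 1 (edgeR adjusted p = 0.121). Over all alternatives run, its lowest adjusted p was 0.0591 with edgeR and scaling to B cell markers. In that fit the gene's own spread carried no weight, as described for Ighe below.

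In the proportion of IgA among heavy chain transcripts, the KO and WT libraries did not overlap. Igha made up 5.52%, 7.74% and 6.40% of the counts of the 8 heavy chain genes in KO replicates 1, 2 and 3 and 10.985% and 10.905% in WT replicates 1 and 2. The WT libraries, which differed by a factor of 2.02 in the CPM of Igha, were nearly equal in this proportion, and every KO library lay below both. The difference was −4.39 percentage points (6.56 ± 1.12% in KO, SD, n = 3, against 10.945 ± 0.0568% in WT, SD, n = 2; exact permutation test, two-sided, p = 0.2, the smallest it can give). It lay between −4.98 and −3.87 percentage points when any 1 library was left out, and was −3.26 on the TPM scale. Relative to Ighm alone, a ratio chosen after the counts were seen, there were 6.10, 9.29 and 7.14 counts of Igha per 100 in KO and 13.2 and 13.2 in WT.

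**Figure D2:**
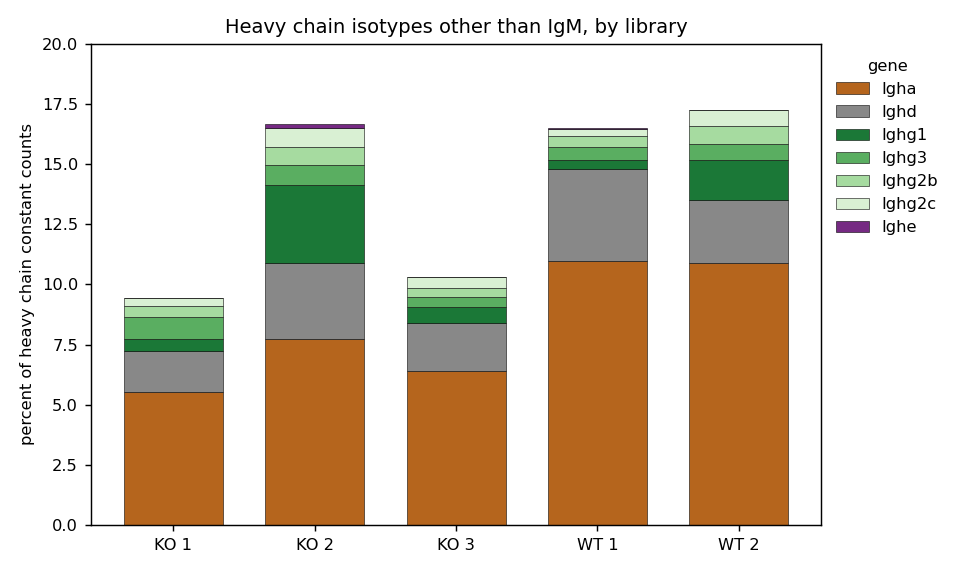
Counts of each heavy chain gene other than Ighm as a percent of the counts of all 8 heavy chain genes, stacked for each KO library and then each WT library. The Igha segment is 5.52% to 7.74% in KO and near 10.9% in both WT libraries, while the Ighg1 segment is thick only in KO replicate 2 and, less so, WT replicate 2.

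**Figure D3:**
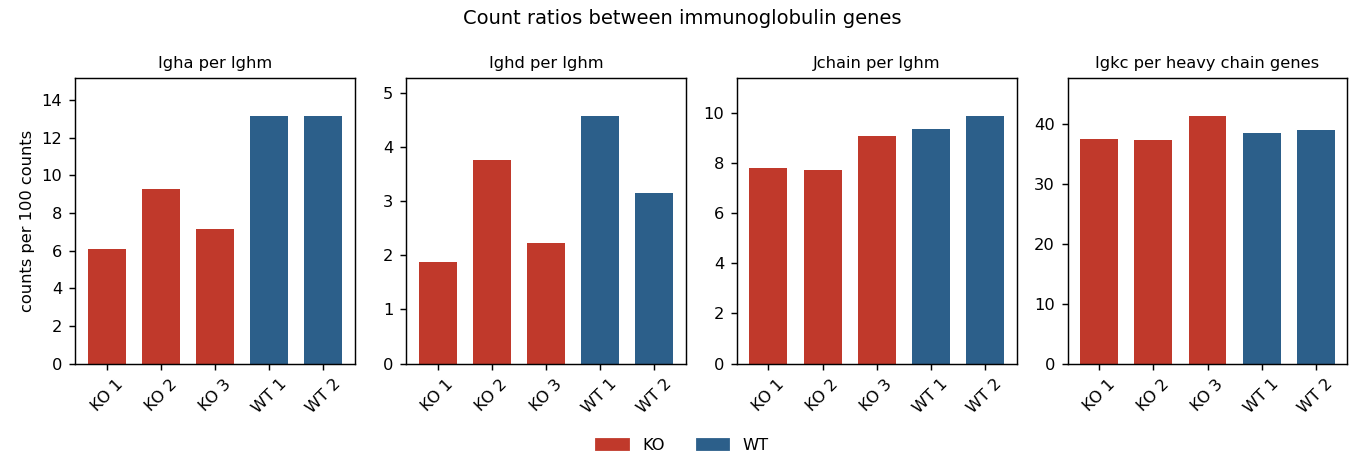
Counts of Igha, Ighd and Jchain per 100 counts of Ighm, and of Igkc per 100 counts of the heavy chain genes, for each KO library (red) and each WT library (blue). Igha per Ighm is 6.10 to 9.29 in KO and 13.2 in both WT libraries, and Igkc per heavy chain varies only from 37.4 to 41.5.

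In all, 38 shares and ratios were computed from the members, many of them sharing the same counts, and in 8 of them (21.1%, against 35% of all genes tested) the genotypes did not overlap. These 8 were the share of Igha, the ratio of Igha to Ighm, both Jchain ratios, and Igha and Ighd each set against B cell markers and against plasma cell genes. All 8 were lower in KO, and 6 of them have the same Igha or Ighd counts in the numerator. After Benjamini-Hochberg adjustment over the 38 quantities, the smallest p of the exact permutation tests was 0.95. Each share comes from 207301 to 398872 heavy chain counts, and its 95% Wilson interval was at most 0.320 percentage points wide, a figure that covers counting error only.

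Class-switched isotypes as a whole did not separate the genotypes. Ighg1, Ighg2b, Ighg2c, Ighg3, Ighe and Igha together made up 7.73%, 13.5% and 8.32% of heavy chain counts in KO replicates 1, 2 and 3 and 12.7% and 14.7% in WT replicates 1 and 2 (exact permutation test, two-sided, p = 0.4). KO replicate 2 was within the range of the WT libraries and the other KO libraries were below it. IgM accounted for most of the remainder, at 90.6%, 83.3% and 89.7% in KO and 83.5% and 82.7% in WT.

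Among the IgG genes, Ighg1 was the most uneven. IgG1 is an isotype known for type 2 responses in mice, in which IL-4 directs switching to it and to IgE. Ighg1 had 1410, 7129 and 2612 counts in KO replicates 1, 2 and 3 and 749 and 6078 counts in WT replicates 1 and 2, or 55.2, 271 and 85.5 CPM in KO and 24.7 and 233 CPM in WT. It was high in 1 library of each genotype, and WT replicate 2 had 9.44 times the level of WT replicate 1. The log2 fold change was 0.091 with an SE of 0.98 (edgeR adjusted p = 0.974), and its 95% interval ran from −2.28 to 2.46.

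Ighg2b, Ighg2c and Ighg3 were lowest in WT replicate 1. Ighg2c stands in C57BL/6 mice in the place of the Ighg2a of other strains. Ighg2b was at 47.1, 61.3 and 50.9 CPM in KO replicates 1, 2 and 3 and at 29.5 and 105 CPM in WT replicates 1 and 2 (log2 fold change −0.34, SE 0.47, edgeR adjusted p = 0.775). Ighg2c was at 34.1, 67.0 and 54.9 CPM in KO and at 20.8 and 88.5 CPM in WT (log2 fold change −0.067, SE 0.57, edgeR adjusted p = 0.968). For both genes the KO libraries lay between the WT libraries. Ighg3, an isotype of T cell-independent responses, was at 96.4, 71.8 and 55.2 CPM in KO and at 38.3 and 91.7 CPM in WT (log2 fold change 0.20, SE 0.38, edgeR adjusted p = 0.851). Its highest library was KO replicate 1, which was the lowest KO library for the other IgG genes.

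Ighe, the heavy chain of IgE, was measured at low counts, with 21, 358 and 141 in KO replicates 1, 2 and 3 and 49 and 71 in WT replicates 1 and 2. KO replicate 2 was the highest and KO replicate 1 the lowest of the 5, a 16.6-fold range within the KO group, and the WT libraries lay between them. The log2 fold change was 1.55 (SE 0.9998, edgeR adjusted p = 0.504), and without KO replicate 2 it was 0.35 (edgeR adjusted p = 0.907). Ighe passed when the libraries were scaled to B cell markers (log2 fold change 1.54, SE 0.36, edgeR adjusted p = 0.0010) and to plasma cell genes (edgeR adjusted p = 0.011). In those fits the gene's own spread carried no weight, because edgeR estimated an infinite prior degree of freedom, against 3.34 with TMM scaling. Per 100 counts of Ighg1, a ratio also chosen after the counts were seen, there were 1.49, 5.02 and 5.40 counts of Ighe in KO and 6.54 and 1.17 in WT, so the libraries highest in Ighg1 did not share a ratio.

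**Figure D4:**
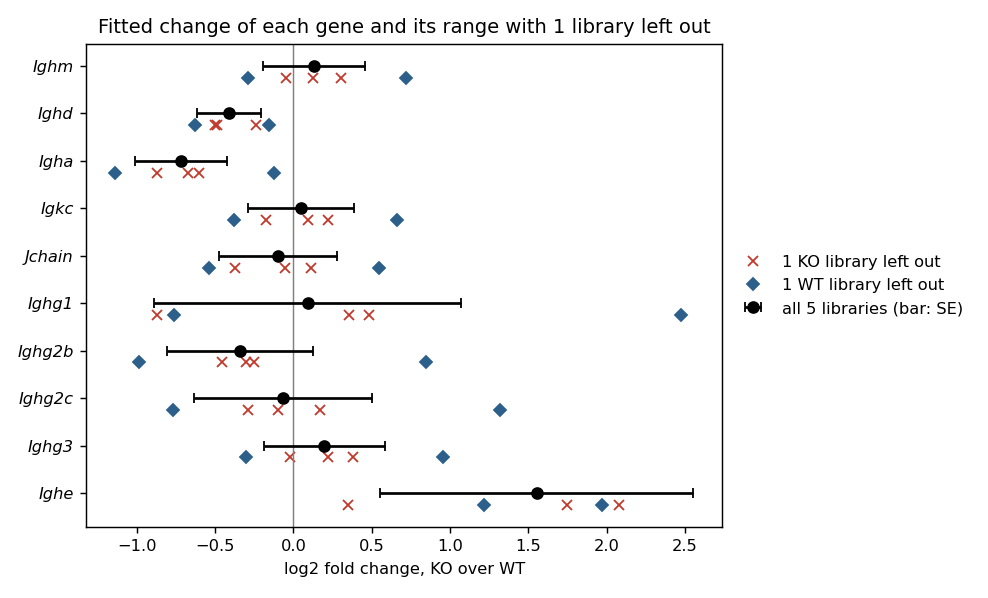
Fitted log2 fold change (KO over WT) of each member with all 5 libraries (black, bar is the SE) and with each KO library (red crosses) or WT library (blue diamonds) left out in turn. The diamonds lie on both sides of 0 for Ighm, Igkc, Jchain and the 4 IgG genes, and on 1 side for Ighd, Igha and Ighe.

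Leaving out either WT library moved the fitted changes of 7 members to opposite sides of 0. In these fits the lone WT library is assumed to vary as the KO libraries do. Without WT replicate 1 the log2 fold changes were −0.29 for Ighm, −0.38 for Igkc and −0.54 for Jchain, and without WT replicate 2 they were 0.72, 0.66 and 0.55. Without either one, 0 members were called by edgeR. For Ighg1 the value was −0.77 without WT replicate 1 and 2.47 without WT replicate 2, and it was −0.87 without KO replicate 2. Ighd, Igha and Ighe kept their direction in each of the 5 fits that left out a library, at −0.63 to −0.16 for Ighd, −1.14 to −0.13 for Igha and 0.35 to 2.08 for Ighe.

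The genes whose profile over the libraries was most like that of Ighm and Jchain included known genes of plasma cells. As a measure of likeness, log2(CPM + 0.5) was centred on its mean over the 5 libraries, and the root mean square difference from a member was taken for 7159 genes outside the immunoglobulin loci at or above the median level. For Ighm the closest gene was Sdc1, which encodes the plasma cell surface proteoglycan CD138, at a difference of 0.078. Sdc1 was at 26.5, 18.8 and 28.2 CPM in KO replicates 1, 2 and 3 and at 15.5 and 29.4 CPM in WT replicates 1 and 2, the same order as Ighm but for the nearly level top pair. The next were Prkar2b, a regulatory subunit of protein kinase A, at 0.14 and Txndc5, a disulphide isomerase of the endoplasmic reticulum, at 0.18. For Jchain the closest were Mzb1, a chaperone of the endoplasmic reticulum in B and plasma cells, at 0.19, Sdc1 at 0.20 and Txndc5 at 0.21. For Igha they were Ckap4 at 0.18, Fgd2 at 0.19 and Rasgrp3 at 0.21. Between members, Ighm and Igkc differed by 0.066, Igkc and Jchain by 0.10 and Ighm and Jchain by 0.15, whereas Ighm and Igha differed by 0.45 and Ighm and Ighg1 by 1.19. These are descriptions over 5 libraries, which also share their depth and composition.

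**Figure D5:**
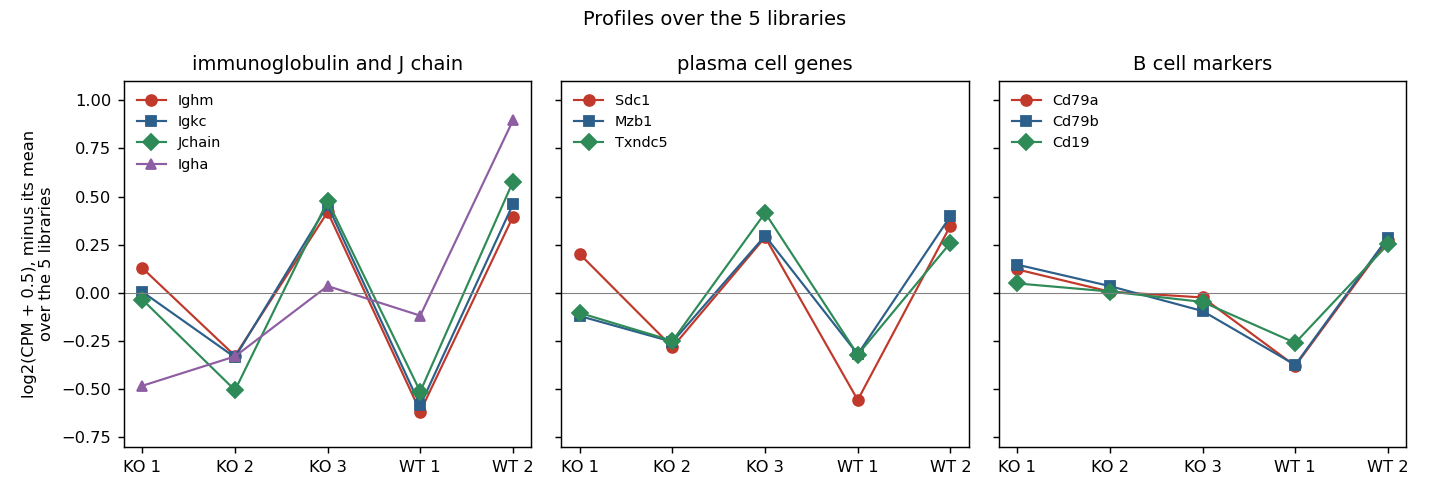
Centred log2(CPM + 0.5) over the 5 libraries, with lines as a guide only, for 4 members (left), 3 plasma cell genes (middle) and 3 B cell markers (right). Ighm, Igkc, Jchain and the 3 plasma cell genes are high in KO replicate 3 and WT replicate 2. These 3 were picked as profiles closest to Ighm or Jchain, and other genes of their list, such as Irf4, do not all share the pattern. Igha is high in WT replicate 2 alone, and the 3 B cell markers shown vary less and are not raised in KO replicate 3.

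B cell markers varied less than immunoglobulin did. The 18 markers summed to 4813, 4540 and 4431 CPM in KO replicates 1, 2 and 3 and to 3727 and 5342 CPM in WT replicates 1 and 2. Of the 18, 0 were called by edgeR (against 0.284% of all genes tested) or DESeq2 (against 7.35% of those it tested). An unadjusted edgeR p under 0.05 was reached by 1, against 16.4% of all genes. This was Cr2, a complement receptor, lower in KO and named after its values were seen. The median log2 fold change of the 18 was 0.012. Cd79a and Cd79b, which carry the signal of the B cell receptor, were at 694, 641 and 628 CPM and at 486, 449.9 and 411 CPM in KO, and at 491 and 773 CPM and at 339 and 536 CPM in WT. All 18 markers were higher in WT replicate 2 than in WT replicate 1, by a median factor of 1.41, against 2.10 for the 10 members. Set against the geometric mean of the 18 markers, Ighm was 42.8, 32.5 and 56.5 times as high in KO and 32.6 and 46.9 times in WT, so KO replicate 3 and WT replicate 2 were again the high libraries. On this scale the summed members differed between the genotypes by 0.044 (log2; exact permutation test, two-sided, p = 1.0).

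Genes of plasma cells and of antibody secretion likewise showed no call between the genotypes. The 16 genes summed to 1154, 1087 and 1301 CPM in KO replicates 1, 2 and 3 and to 959 and 1341 CPM in WT replicates 1 and 2. By edgeR 0 were called, against 0.284% of all genes, and by DESeq2 0, against 7.35%. An unadjusted edgeR p under 0.05 was found for 1, against 16.4% of all genes. This was Prdm1, which Tregs also express, also named after its values were seen. All 16 were higher in WT replicate 2 than in WT replicate 1, by a median factor of 1.46. Txndc5, Irf4, a transcription factor that Tregs also express, and Xbp1, which drives the secretory program, were the most abundant, and their edgeR adjusted p lay between 0.755 and 0.942. Of 12 genes of class switching and the germinal centre, 0 were called by edgeR or DESeq2, against the same shares of all genes. An unadjusted edgeR p under 0.05 was found for 1 (Polh, also named after its values were seen), against 16.4%. The median log2 fold change of the 12 was 0.026.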

How the data were processed

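RNA-seq libraries of 3 KO and 2 WT samples were analysed. Per the labels' protocols, ribosomal RNA was removed. The submitters' processing notes name Trimmomatic 0.36, STAR 2.5.2b and the GRCm38 genome. For the counter, the strand setting and multi-mapping reads, the sources used here state nothing, so overlapping genes and copies remain uncertain, and secreted and membrane forms are not separated. The authors deposited whole-number counts per gene. They also deposited TPM, per length and summing to 1000000, used for levels between genes, and deposited RPKM, not used in a result. A deposited column named CPM was not used.

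The quasi-likelihood test of edgeR 4.0.16 (glmQLFit and glmQLFTest in R 4.3.3; the model held genotype alone) was run after filterByExpr and TMM normalization, with p-values adjusted by Benjamini-Hochberg over 14460 genes (false discovery rate 0.05). The SE is the size of the log2 change divided by the square root of F. Shares and ratios used the counts and exact permutation tests (SciPy 1.17.1). Counts in replicates of a group differed by 16.5 to 39.1 (chi-square per degree of freedom), beyond sampling noise. The members and lists were chosen with earlier results of these data known. Besides the members, the rule named the 3 most abundant genes of each list, called list members, Klf10 and the closest profiles; lists without bearing on the members are given as sums.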

Additional observations from a re-analysis of the deposited data

How the results depend on the processing

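The count of all genes called, 41 by edgeR, was 33 with DESeq2 size factors, 1176 with pan-T cell scaling, 566 with scaling to B cell markers, 352 with scaling to plasma cell genes (added after the data were seen), 589 without a filter, 23 with a filter at a mean of 50 counts, 1022 by DESeq2 and 1 to 334 with 1 library left out. Members called were 0 in each of these settings except scaling to B cell markers and to plasma cell genes (1 each, Ighe). The log2 change of Ighg2c, −0.067 as reported, was 0.11 with pan-T cell scaling, 0.018 with B cell marker scaling, 0.077 with plasma cell gene scaling and 0.13 with the replicate number as a block. Jchain was at 0.12 with pan-T cell scaling and Igkc at −0.10 with the block. With 1 library left out, log2 changes lay between −0.29 and 0.72 for Ighm, −0.38 and 0.66 for Igkc, −0.54 and 0.55 for Jchain, −0.87 and 2.47 for Ighg1, −0.99 and 0.85 for Ighg2b, −0.77 and 1.32 for Ighg2c and −0.30 and 0.96 for Ighg3. The cause was not tested. The replicate block gave 32 calls and 0 among the members. Under it Ighd was at −0.50 (SE 0.070 against 0.20, edgeR adjusted p = 0.0935) and Ighg1 at 0.67 (SE 0.24 against 0.98, edgeR adjusted p = 0.321). The SE of Ighm, Ighg3, Igkc and Jchain was larger with the block. Over all genes tested, deviations from the group means correlated at −0.019 and 0.044 between same-numbered libraries. Those of the 2 WT libraries mirror each other and KO replicate 3 has no partner, so the correlations cannot decide on pairing. The numbers were not taken as pairs. Shares and ratios moved by less than 1 SD (pooled over KO and WT) in the alternatives run, except the Igha share on the TPM scale, but several moved by more than the SD of 1 of the groups. With 1 library left out, the KO minus WT difference lay between −0.54 and 0.52 percentage points for the members' share of all counts, −5.63 and −2.73 for the class-switched share and −4.98 and −3.87 for the Igha share, and between −0.93 and 1.55 (log2) for the ratio of Ighe to Ighg1.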

Other observations

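Receptors that bind the constant regions of antibodies were measured beside the antibodies themselves. Of 11 tested genes of immunoglobulin receptors and transporters, edgeR called 1 higher in KO (against 0.228% of all genes) and 0 lower, and DESeq2 called 5 higher (against 5.84% of the genes it tested). Those called by DESeq2 alone were Fcgrt, the neonatal IgG receptor, Fcer1g, the signalling chain of several Fc receptors, and the activating IgG receptors Fcgr3 and Fcgr1. Their log2 fold changes lay between 1.11 and 1.39, with edgeR adjusted p between 0.0635 and 0.0845. In 5 of the 11 genes, these 4 among them, all KO libraries were above both WT libraries, against 17.6% of all genes. All KO libraries were below both WT libraries in 3 of the 11, against 17.4%. These were Trim21, Pigr and Ms4a2, the last pair named after their values were seen. Their log2 fold changes were −0.13, −1.30 and −0.41 (edgeR adjusted p = 0.469, 0.175 and 0.702). Counts per library were low for Pigr (17 to 73) and Ms4a2 (6 to 12). The gene called by both was Fcgr4, an activating IgG receptor of macrophages and monocytes, at 8.92, 10.528 and 7.86 CPM in KO replicates 1, 2 and 3 and at 2.97 and 2.76 CPM in WT replicates 1 and 2 (log2 fold change 1.66, SE 0.18, edgeR adjusted p = 0.045). Its call was lost without KO replicate 2 (edgeR adjusted p = 0.123), KO replicate 3 (0.0714), WT replicate 1 (0.0911) or WT replicate 2 (0.157) and with the replicate block (0.0736), and over all alternatives its adjusted p ranged from 4.84e-10 with DESeq2 to 0.157. Its log2 fold change stayed between 1.55 and 1.77 in the fits that lost the call. Each of the 10 macrophage markers, whose sums stand with the description of the libraries, was higher in every KO library than in both WT libraries, against 17.6% of all genes. The part of these markers in this result was not tested. The most abundant receptors of the list were Fcmr, the IgM receptor of lymphocytes, and Fcgr2b, the inhibitory IgG receptor. Fcmr was at 168, 200.4 and 243 CPM in KO and 193 and 259 CPM in WT (edgeR adjusted p = 0.750), and Fcgr2b at 39.4, 47.2 and 61.4 CPM in KO and 43.9 and 62.3 CPM in WT (edgeR adjusted p = 0.862).

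Heavy and kappa variable gene segments were counted beside the constant regions. The 185 heavy chain variable genes took 0.162%, 0.136% and 0.211% of all counts in KO replicates 1, 2 and 3 and 0.119% and 0.259% in WT replicates 1 and 2, and the 160 kappa variable genes took 0.243%, 0.199% and 0.359% in KO and 0.174% and 0.357% in WT. KO replicate 3 and WT replicate 2 were the high libraries in both classes. The 3 lambda variable genes took 0.0381%, 0.0360% and 0.0385% of all counts in KO and 0.0294% and 0.0682% in WT, and there KO replicate 3 was level with KO replicate 1 and WT replicate 2 was high.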
